A study of Mus musculus with 8 samples.

Results

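The BCL2 family genes Bcl2l11, Bid, Bad, Bmf, Bak1, Mcl1, Bcl2l1, Bcl2, Bcl2a1b and Bcl2a1d were taken by gene name from a table of 26848 genes, and all 10 were found once each. They were chosen by name as 5 pro-survival genes, 1 effector gene and 4 BH3-only genes. Expression was measured by RNA-seq in RAW264.7, a mouse line of macrophage-like cells, cultured on polyetheretherketone (PEEK), a polymer of bone implants. The structured group grew on PEEK with nanometre and micrometre surface features and the smooth group on PEEK without them, with 4 libraries in each group and no further treatment named in the labels. The labels name no other cells and number 3 of the 4 libraries of each group as biological replicates. They do not say whether these were separate cultures, so p-values measure the spread between these libraries, which may in part be technical.

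The BCL2 family controls the permeability of the outer mitochondrial membrane. The effector proteins BAK and BAX open pores through which cytochrome c leaves and caspases are switched on. Pro-survival members such as BCL2, BCL-XL, MCL1 and A1 bind and restrain the effectors, and BH3-only proteins such as BIM, BID, BAD and BMF counter the pro-survival members or act on the effectors directly. In macrophages MCL1 and A1 are known as survival proteins, and A1 is induced by inflammatory signals.

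Libraries held 64660379 to 69885018 count units in the structured group and 64479829 to 73098735 in the smooth group. Low values pile up at multiples of 4, so the counts were treated as estimates, and how a unit relates to a sequenced fragment is not known. Summed macrophage markers (8 of 8 in the table, Csf1r, Cd68, Lyz2 and Spi1 among them) lay at 5551 to 5655 CPM on structured and 5311 to 5703 CPM on smooth PEEK, where CPM is the count scaled to library size. Markers of other cells also differed between libraries. Neutrophil markers (13 of 14 in the table) summed to 70.1, 110.2, 107.8 and 109.6 CPM in structured libraries 1 to 4. In smooth libraries they summed to 59.4 to 69.8 CPM. Of 7 tested genes 5 were called higher on structured PEEK, against 1.01% of all tested genes. S100a8, S100a9, Mmp8 and Ngp would not have passed the low-count filter on the smooth libraries alone. Their calls are therefore no separate support. The largest part of each sum is Mmp9, which macrophages can also express, at 49.0 to 54.1 CPM on structured and 53.3 to 64.0 CPM on smooth PEEK. S100a9 had 1.99, 11.7, 11.8 and 14.3 CPM in structured libraries 1 to 4 and at most 0.0601 CPM in smooth libraries. Mmp8 had 0.750, 12.2, 12.0 and 12.8 CPM and Ngp 0.159, 5.33, 4.99 and 5.57 CPM in structured libraries 1 to 4, and both were at 0 in all 4 smooth libraries. Skeletal muscle markers (8 of 8) summed to 1.47 to 7.34 CPM on structured and 8.56 to 43.2 CPM on smooth PEEK. Of these, 3 of 8 were called lower, against 2.75% of all tested genes. Hepatocyte markers (7 of 7) summed to 71.2 to 282.1 CPM on structured and 51.2 to 184.0 CPM on smooth PEEK. T cell markers (2 of 4 in the table) reached at most 0.115 CPM on structured and 0.0565 CPM on smooth PEEK, and B cell markers (3 of 3) 1.69 CPM on structured and 1.10 CPM on smooth PEEK. No listed marker found in the table was at 0 in every library. The part of these transcripts in the results below was not tested. A fit with the neutrophil marker level as a covariate cannot separate that level from the surface. Every structured sum, from 70.1 CPM, lay above every smooth sum, up to 69.8 CPM. Fewer cells of a type and less RNA per cell cannot be told apart in such bulk libraries.

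Among the members, transcripts of BIM fell on structured PEEK by about 0.28 on the log2 scale, and no other member passed the test. Transcripts of BID were higher in every structured library than in any smooth library but stayed just above the threshold. The main pro-survival transcripts, Mcl1 and Bcl2l1, differed by less than their spread. Counted against all genes, 1 of 10 members was called lower (adjusted p below 0.05, edgeR quasi-likelihood test with Benjamini-Hochberg adjustment over 16006 genes), where 2.75% of all tested genes were lower. None was called higher in this fit, where 1.01% of all tested genes were. Bid was called higher by DESeq2, which called 553 higher and 880 lower of 16006 tested genes. In either direction the edgeR fit called 3.75% of all tested genes. The split over all genes was 161 higher and 440 lower, and 201 higher and 192 lower with a trend on GC content and transcript length removed. At an unadjusted p below 0.05 there were 2 of 10 members, against 18.7% of all tested genes, and 2 of 10 members had groups whose CPM ranges did not overlap, against 12.2%. The median log2 fold change was 0.08 over the members and 0.01 over all tested genes. The share of members at an unadjusted p below 0.05 was near that of all genes.

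**Figure D1:**
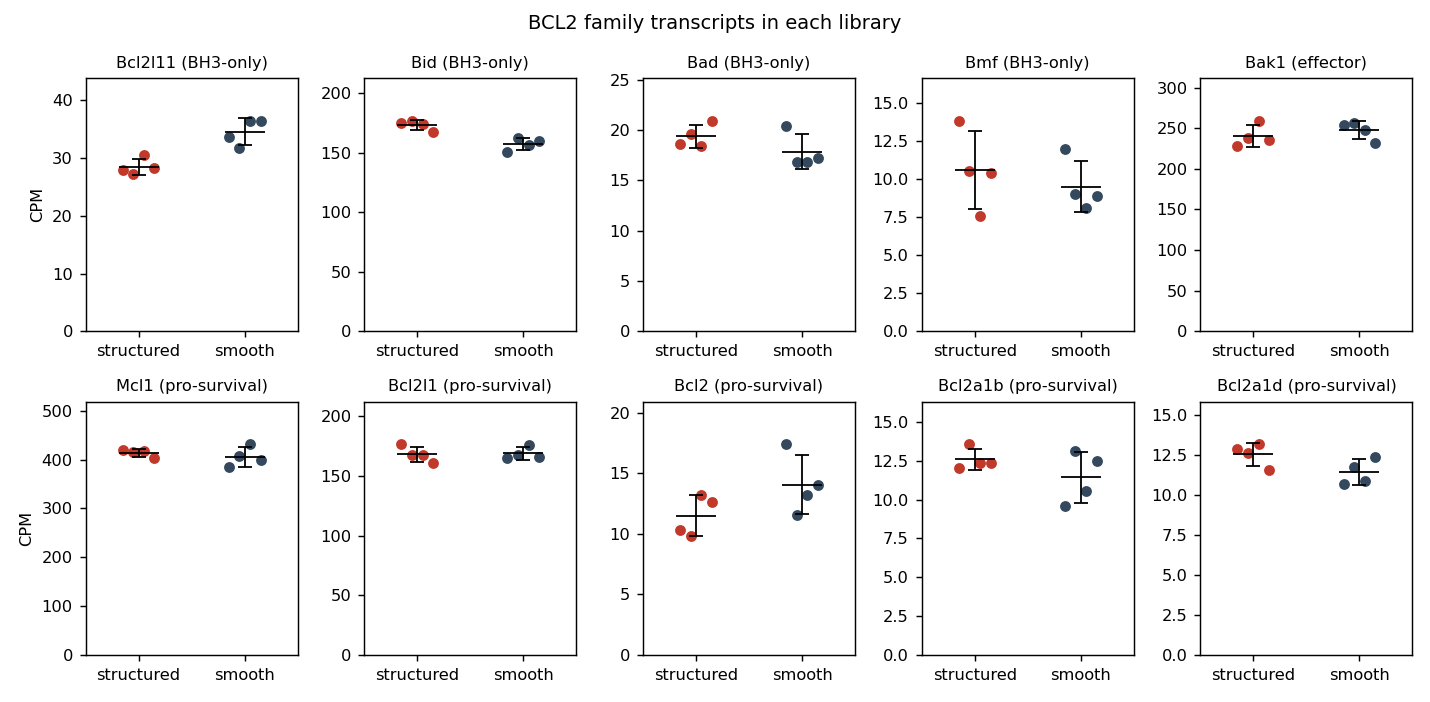
CPM of the 10 members in each library, with structured PEEK left and smooth PEEK right (points: 4 libraries per group; bar and whiskers: mean and SD; each axis starts at 0). The Bcl2l11 points lie at 27.2 to 30.5 on structured and 31.7 to 36.5 on smooth PEEK and do not overlap, nor do those of Bid, while the other 8 members overlap.

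Levels can be compared between genes in FPKM, which is scaled to gene length. The order of the members was the same on both surfaces. Mcl1 was highest, at 113.5 ± 2.24 FPKM on structured and 110.8 ± 4.46 FPKM on smooth PEEK (SD, n = 4 each). The pore-forming effector gene Bak1 came next, at 93.8 ± 5.35 FPKM on structured and 96.2 ± 5.17 FPKM on smooth PEEK. Bid followed at 45.9 ± 1.01 FPKM on structured and 41.4 ± 0.951 FPKM on smooth PEEK. Then came Bcl2l1 at 34.4 FPKM on both surfaces. The A1 genes followed, Bcl2a1b at 14.4 FPKM on structured and 13.1 FPKM on smooth PEEK and Bcl2a1d at 13.7 FPKM on structured and 12.4 FPKM on smooth PEEK. Bad averaged 7.10 FPKM on structured and 6.51 FPKM on smooth PEEK, and Bcl2l11 3.33 FPKM on structured and 4.02 FPKM on smooth PEEK. Bmf, at 1.89 FPKM on structured and 1.69 FPKM on smooth PEEK, and Bcl2, at 1.18 FPKM on structured and 1.44 FPKM on smooth PEEK, were the lowest. Neighbours in this order had ranges that did not overlap, with the exception of Bcl2a1b and Bcl2a1d and of Bmf and Bcl2 on each surface. Bcl2, the founding gene of the family, had the lowest mean on each surface.

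**Figure D2:**
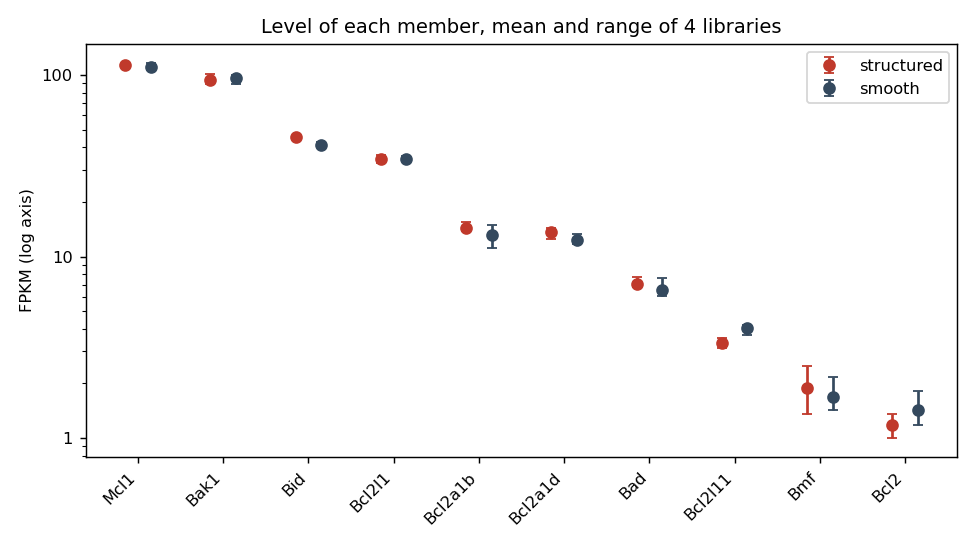
FPKM of each member on a log axis (points: mean of 4 libraries; whiskers: lowest and highest library; structured left of smooth for each gene). The members span from Mcl1 (113.5 FPKM on structured, 110.8 on smooth PEEK) to Bcl2 (1.18 on structured, 1.44 on smooth PEEK), in the same order on both.

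Summed over roles, the 5 pro-survival genes reached 171.7 to 181.0 FPKM on structured and 166.2 to 177.8 FPKM on smooth PEEK, so the groups overlapped. The 4 BH3-only genes summed to 59.1, 58.4, 57.9 and 57.2 FPKM in structured libraries 1 to 4, against 54.2, 54.1, 52.6 and 53.7 FPKM in smooth libraries 1 to 4. Every structured library was above every smooth library in this sum, most of which is Bid. The Bcl2l11 transcript, a small part of the same sum, had the opposite sign.

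Bcl2l11 (ENSMUSG00000027381) lies on the forward strand of chromosome 2 from 128126038 to 128162547. It encodes BIM, a BH3-only protein that binds all pro-survival members and can act on the effectors, and it is known for the death of blood cells that lose their growth factor. It had 28.0, 27.2, 30.5 and 28.3 CPM in structured libraries 1 to 4, against 33.6, 31.7, 36.4 and 36.5 CPM in smooth libraries 1 to 4. The highest structured library lay below the lowest smooth library. The mean was 28.5 ± 1.41 CPM on structured and 34.6 ± 2.33 CPM on smooth PEEK (SD, n = 4 each), a log2 fold change of -0.28 ± 0.06 (SE; 95% interval -0.41 to -0.15; edgeR BH-adjusted p = 0.0325). The difference was thus larger than the spread between libraries, though the call was not kept in every subset of them. With 1 library left out at a time the log2 fold change ran from -0.32 to -0.25. The call held without structured 3, smooth 1 or smooth 2 (edgeR BH-adjusted p from 0.0289) and was lost without structured 1, 2 or 4 or smooth 3 or 4 (up to 0.103). With the neutrophil marker level as a covariate the log2 fold change was -0.33 and the edgeR BH-adjusted p 0.399, within a range of 0.00252 to 0.399 over 19 alternatives. BIM has several splice forms, and a sum over the whole gene does not tell them apart.

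The 250 bases before the annotated start of Bcl2l11 are shown because this is the member that fell, and because they hold the core FOXO motif TGTTTAC. FOXO factors are known activators of Bcl2l11 when growth factor signals are absent. The sequence is from RefSeq (GRCm38.p6, chr2:128125788-128126037, forward strand), in lower case with the motif, which lies on the reverse strand, in capitals.

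Bcl2l11: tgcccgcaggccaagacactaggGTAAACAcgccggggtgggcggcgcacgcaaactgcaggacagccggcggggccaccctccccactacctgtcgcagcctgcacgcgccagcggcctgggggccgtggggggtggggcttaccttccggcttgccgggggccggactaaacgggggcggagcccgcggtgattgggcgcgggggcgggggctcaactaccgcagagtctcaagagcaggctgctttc

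The match covers bases 227 to 221 before the start, and 72.0% of the 250 bases are G or C. Windows of 300 bases, from 250 before to 50 after each annotated start, were searched on both strands for 6 letter strings. All 10 members had such windows, 16 in all. TGTTTAC was found in 1 of the 16, against 3.65% of all 32851 windows. The AP-1 string TGANTCA was found in 2, those of Bcl2a1b and Bcl2a1d, against 7.81%, and the kappa B string GGGNNTTCC in 1, a Bcl2l1 window, against 5.82%. The CRE string TGACGTCA (1.79% of all windows) and the E2F strings TTTGGCGC (0.514%) and TTTCCCGC (1.07%) were in none of the 16. A match is a run of letters and not a measured binding site, and the part of FOXO factors in the Bcl2l11 difference was not tested.

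Bid (ENSMUSG00000004446, chromosome 6, 120891930 to 120916853, reverse strand) encodes a BH3-only protein that caspase-8 cuts, which carries death receptor signals to mitochondria. Its values were 174.9, 177.0, 174.4 and 167.6 CPM in structured libraries 1 to 4, against 150.8, 162.5, 156.6 and 159.5 CPM in smooth libraries 1 to 4. The groups did not overlap. The means were 173.5 ± 4.07 CPM on structured and 157.3 ± 5.00 CPM on smooth PEEK (SD, n = 4 each), and the log2 fold change was 0.14 ± 0.04 (SE; 95% interval 0.06 to 0.22; edgeR BH-adjusted p = 0.0583). It did not pass the threshold here, but did with DESeq2 (adjusted p = 0.00458), with counts divided by 4 (edgeR BH-adjusted p = 0.0444) and with limma on log2(FPKM + 0.1) (adjusted p = 0.0497). These were 3 of 19 alternatives. In the 8 fits with 1 library left out Bid was never called (edgeR BH-adjusted p from 0.0762 to 0.174). Bid shares 913 bases with Bcl2l13, which lies on the opposite strand and had a mean of 4588 count units, against 11290 for Bid. The library kit marked the strand, and whether counting used it is not stated.

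Bad (ENSMUSG00000024959, chromosome 19, 6941861 to 6951899, forward strand) encodes a BH3-only protein that survival kinases keep phosphorylated and bound to 14-3-3 proteins. It had 18.6, 19.6, 18.4 and 20.9 CPM in structured libraries 1 to 4, against 20.4, 16.9, 16.8 and 17.2 CPM in smooth libraries 1 to 4. The groups overlapped, with smooth 1 above 3 of the 4 structured libraries. The gene Gpr137, on the opposite strand, shares 620 bases with it at a mean of 831.9 count units, against 1267 for Bad. Its log2 fold change was 0.12 ± 0.08 (SE, n = 4 per group; 95% interval -0.05 to 0.29; edgeR BH-adjusted p = 0.471), and 0.19 without smooth 1 (edgeR BH-adjusted p = 0.153).

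Bmf (ENSMUSG00000040093, chromosome 2, 118528757 to 118549687, reverse strand) encodes a BH3-only protein that is tethered to the cytoskeleton by dynein light chain and is known for death after loss of attachment. It had 13.9, 10.5, 7.59 and 10.4 CPM in structured libraries 1 to 4, against 12.0, 9.03, 8.10 and 8.93 CPM in smooth libraries 1 to 4. It varied most of the members, and the groups overlapped. Its log2 fold change was 0.16 ± 0.18 (SE, n = 4 per group; 95% interval -0.23 to 0.54; edgeR BH-adjusted p = 0.723). It was -0.0038 without structured 1 and 0.70 with the neutrophil marker level as a covariate, and was called in neither.

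**Figure D3:**
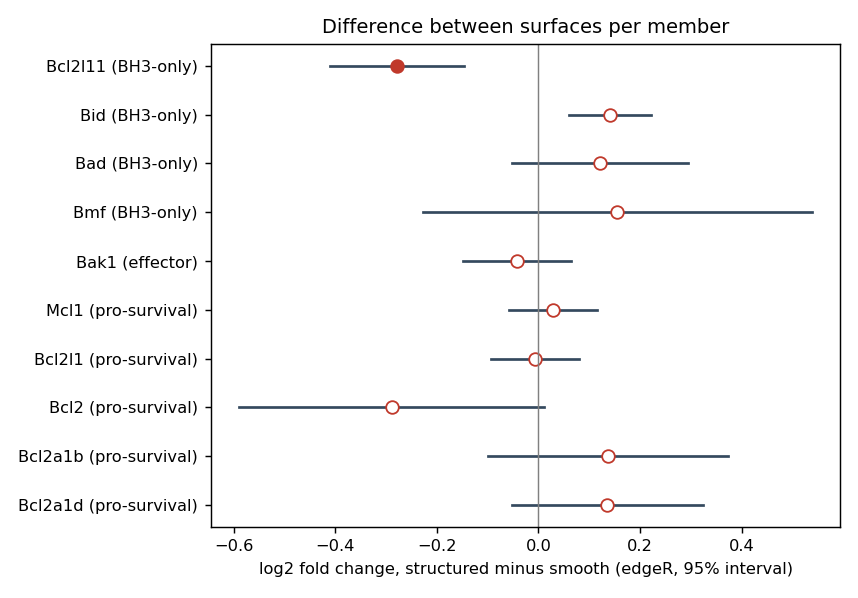
Log2 fold change of each member, structured minus smooth (points: edgeR estimate; lines: 95% interval; filled: adjusted p below 0.05). Bcl2l11 at -0.28 is the filled point, the Bid interval of 0.06 to 0.22 lies above 0, and the other 8 intervals cross 0.

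Bak1 (ENSMUSG00000057789, chromosome 17, 27019810 to 27029009, reverse strand), the effector gene, had 227.7, 238.5, 259.5 and 236.1 CPM in structured libraries 1 to 4, against 254.3, 256.7, 248.1 and 231.6 CPM in smooth libraries 1 to 4. The groups overlapped over most of their range. Structured minus smooth, the log2 fold change was -0.04 ± 0.05 (SE, n = 4 per group; 95% interval -0.15 to 0.06; edgeR BH-adjusted p = 0.725). The gene Gm50253 spans it on the opposite strand with a mean of 767.9 count units, against 16650 for Bak1. The other effector, Bax, which is no member here, had 236.1 to 250.3 CPM on structured and 203.3 to 238.3 CPM on smooth PEEK, a log2 fold change of 0.13 ± 0.05 (SE, n = 4 per group; edgeR BH-adjusted p = 0.162).

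Mcl1 (ENSMUSG00000038612, chromosome 3, 95658788 to 95663176, forward strand) encodes a short-lived survival protein that restrains BAK and BIM. Its values were 419.0, 414.5, 417.3 and 402.8 CPM in structured libraries 1 to 4, against 384.0, 406.8, 431.2 and 398.8 CPM in smooth libraries 1 to 4. All 4 structured libraries lay within the smooth range. Its log2 fold change was 0.03 ± 0.04 (SE, n = 4 per group; 95% interval -0.06 to 0.12; edgeR BH-adjusted p = 0.780).

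Bcl2l1 (ENSMUSG00000007659, chromosome 2, 152780668 to 152831728, reverse strand) gives rise to BCL-XL and, by another splice form, to a pro-death protein, which the gene sum does not separate. It had 176.7, 167.4, 168.1 and 160.8 CPM in structured libraries 1 to 4, against 165.4, 167.6, 176.5 and 166.4 CPM in smooth libraries 1 to 4. The means, 168.3 ± 6.55 on structured and 169.0 ± 5.07 on smooth PEEK (SD, n = 4 each), were closer than those of any other member. The log2 fold change was -0.0061 ± 0.04 (SE; 95% interval -0.09 to 0.08; edgeR BH-adjusted p = 0.961), and its sign changed with the processing. Bcl2 (ENSMUSG00000057329, chromosome 1, 106538178 to 106714274, reverse strand) had 10.3, 9.83, 13.2 and 12.6 CPM in structured libraries 1 to 4, against 17.4, 11.6, 13.2 and 14.0 CPM in smooth libraries 1 to 4. The groups overlapped, with smooth 1 the highest of all. Its log2 fold change of -0.29 ± 0.14 (SE, n = 4 per group; 95% interval -0.59 to 0.01; edgeR BH-adjusted p = 0.287) was as large as that of Bcl2l11 with over 2 times the error, and it was -0.17 without smooth 1.

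The A1 genes are recent duplicates on chromosome 9, Bcl2a1b (ENSMUSG00000089929, 89199209 to 89207827, forward strand) and Bcl2a1d (ENSMUSG00000099974, 88723285 to 88731914, reverse strand), with another copy, Bcl2a1a, which is no member. Their first 90 coding bases, from the GENCODE M21 transcripts, are shown because counts for one copy rest on the few positions at which copies differ. Capitals mark the 6 positions in this stretch, of 12 in all 519 coding bases, at which the 3 copies are not alike.

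Bcl2a1b: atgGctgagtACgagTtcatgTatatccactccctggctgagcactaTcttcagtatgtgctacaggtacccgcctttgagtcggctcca
Bcl2a1d: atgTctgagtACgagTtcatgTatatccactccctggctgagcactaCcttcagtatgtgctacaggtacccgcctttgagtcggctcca
Bcl2a1a: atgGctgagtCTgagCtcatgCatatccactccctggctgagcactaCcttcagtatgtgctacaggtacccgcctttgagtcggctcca

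Bcl2a1b and Bcl2a1d were 98.8% alike over the coding bases, with 6 differing positions, and 14.2% of the 150-base windows of the Bcl2a1b transcript were found unchanged in that of Bcl2a1d. Bcl2a1b had 12.1, 13.6, 12.4 and 12.4 CPM in structured libraries 1 to 4, against 9.57, 13.1, 10.6 and 12.5 CPM in smooth libraries 1 to 4. Bcl2a1d had 12.9, 12.7, 13.2 and 11.6 CPM in structured libraries 1 to 4, against 10.7, 11.8, 10.9 and 12.4 CPM in smooth libraries 1 to 4. In both genes smooth 1 and smooth 3 were low and the groups overlapped.

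The log2 fold change was 0.14 ± 0.11 for Bcl2a1b (SE, n = 4 per group; 95% interval -0.10 to 0.37; edgeR BH-adjusted p = 0.572). It was 0.06 without smooth 1 and 0.21 without smooth 2, called in neither. It was also 0.14, ± 0.09, for Bcl2a1d (95% interval -0.05 to 0.32; edgeR BH-adjusted p = 0.453). Since the split of reads between copies is uncertain, the 4 rows of the A1 genes, Bcl2a1c included, were also summed. Gm29094, which shares 8449 bases with Bcl2a1b on the same strand, was left out of the sum. It had a mean of 18.5 count units, against 821 for Bcl2a1b. The sum was 26.9, 28.2, 27.5 and 25.6 CPM in structured libraries 1 to 4, against 21.7, 27.5, 23.4 and 27.1 CPM in smooth libraries 1 to 4, with a log2 fold change of 0.12 ± 0.08 (edgeR BH-adjusted p = 0.479). A1 is also abundant in neutrophils, and the part of neutrophil transcripts in the A1 values was not tested. The fit with the neutrophil covariate cannot decide this, since the covariate is not separable from the surface. In it the log2 fold change was 0.02 for Bcl2a1b (edgeR BH-adjusted p = 0.991) and 0.15 for Bcl2a1d (0.857), neither called. With the trend on GC content and transcript length removed both were 0.08.

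**Figure D4:**
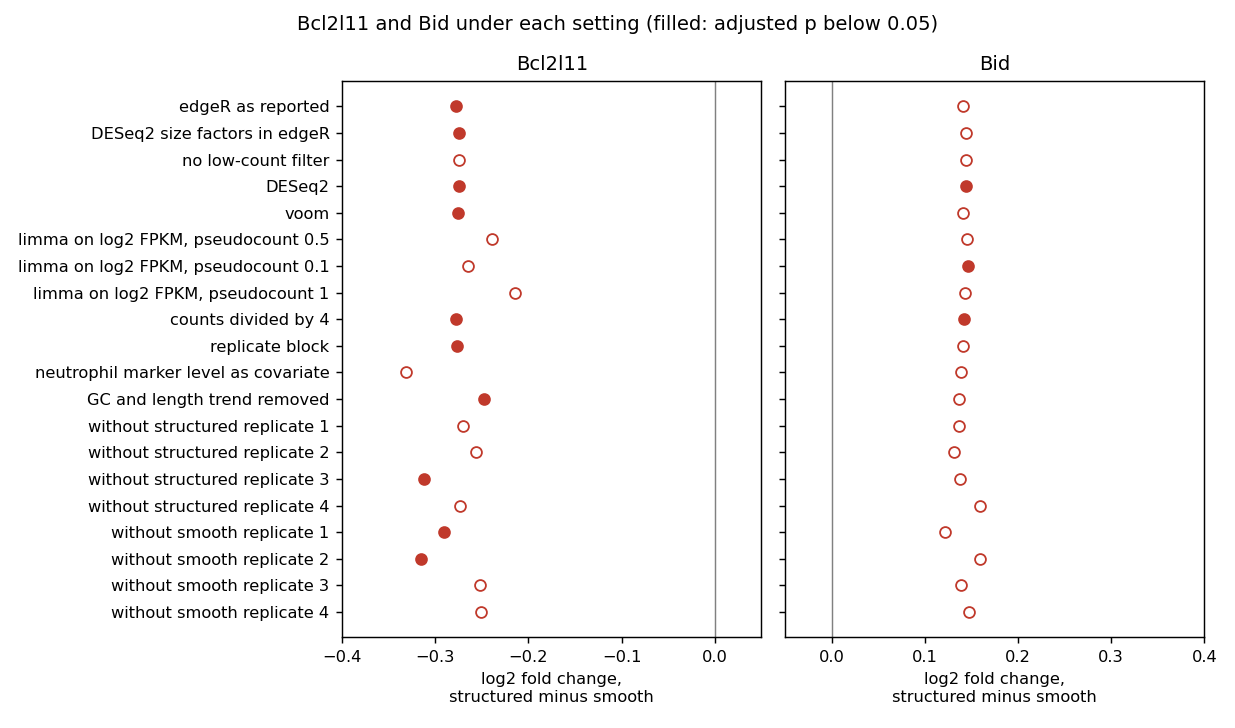
Log2 fold change of Bcl2l11 (left) and Bid (right), structured minus smooth, under the reported test and each alternative (filled: adjusted p below 0.05). Bcl2l11 stays between -0.33 and -0.21 and Bid between 0.12 and 0.16, and both cross the threshold back and forth.

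Other genes around the family were read from lists chosen with earlier results of these data known. Of the other BCL2 family genes 11 of 16 were tested and none was called by edgeR, with 3 at an unadjusted p below 0.05 (18.7% of all tested genes) and Bax called by DESeq2 alone of 19 alternatives (adjusted p = 0.0461, range over alternatives 0.0461 to 0.657). Their median log2 fold change was 0.05. Bbc3, which encodes the BH3-only protein PUMA, had 14.0 to 17.2 CPM on structured and 13.7 to 19.2 CPM on smooth PEEK, with a log2 fold change of -0.02 whose sign changed with the processing. In the caspase route after mitochondria 1 of 17 genes was called higher by edgeR (1.01% of all tested genes) and none lower (2.75%), with a median of 0.04 and 4 genes at an unadjusted p below 0.05. DESeq2 called 2 higher and none lower, against 553 higher and 880 lower of 16006 tested genes. The count of called genes in this list was 0 with the replicate block, without the low-count filter and with the neutrophil level as a covariate. It was also 0 with limma on log2 FPKM at pseudocounts of 0.5 and 1. With 1 library left out it was 1 without structured 3 or smooth 1 and 0 otherwise. The gene that rose was Endog, a mitochondrial nuclease, at 9.66, 9.61, 11.2 and 9.24 CPM in structured libraries 1 to 4, against 8.02, 6.61, 5.46 and 6.51 CPM in smooth libraries 1 to 4 (log2 fold change 0.58 ± 0.13; edgeR BH-adjusted p = 0.0337). Every structured library was above every smooth one, and the call was kept with 1 library left out only without smooth 1. Of 12 tested genes of the death receptor route none was called by edgeR. DESeq2 called 1 lower, where it called 880 of 16006 tested genes lower. At an unadjusted p below 0.05 there were 5 of the 12, against 18.7% of all tested genes. Tnfrsf1a, a TNF receptor gene with the highest FPKM of that list averaged over both groups, had a log2 fold change of -0.14 ± 0.05 (edgeR BH-adjusted p = 0.157).

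Transcription factors known to control BCL2 family genes were called lower in 3 of 17 cases, against 2.75% of all tested genes, and none was called higher by edgeR. DESeq2 called 4 lower and 1 higher, against 880 lower and 553 higher of 16006 tested genes. The median log2 fold change was -0.07, and 14 of 17 were below 0, against 7814 of 16006 tested genes. Jun, an AP-1 subunit, had 78.6, 79.0, 85.2 and 79.7 CPM in structured libraries 1 to 4, against 96.3, 98.2, 99.8 and 106.1 CPM in smooth libraries 1 to 4 (log2 fold change -0.31 ± 0.04; edgeR BH-adjusted p = 0.00732). It passed without any 1 library, at up to 0.0371. Of 19 alternatives it lost the call only with the neutrophil level as a covariate (edgeR BH-adjusted p = 0.177). Trp53, the p53 gene, fell by 0.19 ± 0.04 (SE; edgeR BH-adjusted p = 0.0214). It lost the call without structured 2 or 4 or smooth 2 or 3, without the low-count filter and with the neutrophil level.

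The third, Foxo3, was named after its values were seen. It encodes a FOXO factor known to activate Bcl2l11, and had 50.0, 48.6, 50.7 and 47.2 CPM in structured libraries 1 to 4, against 63.0, 56.1, 57.6 and 57.6 CPM in smooth libraries 1 to 4. Every structured library lay below every smooth one. The log2 fold change was -0.25 ± 0.05 (SE, n = 4 per group; edgeR BH-adjusted p = 0.0229). The call was lost in 10 of 19 alternatives. Among these were the fits without structured 2 or 4 or smooth 3 or 4 and without the low-count filter. The call was also lost with limma on log2 FPKM at each pseudocount and with the neutrophil level as a covariate. With the trend on GC content and transcript length removed it was lost at -0.14. Bcl2l11 kept its call after that removal, at -0.25 (edgeR BH-adjusted p = 0.0453). In the reported fit Foxo1 was at -0.33 (edgeR BH-adjusted p = 0.191) and Foxo4 at 0.04 (0.874), neither called. Whether Foxo3 bears on the level of Bcl2l11 was not tested.

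Among 23 tested partners and turnover factors of the family's proteins 2 were called lower by edgeR (2.75% of all tested genes) and none higher (1.01%), with a median of -0.02 and 4 genes at an unadjusted p below 0.05. DESeq2 called 3 lower and none higher, against 880 lower and 553 higher of 16006 tested genes. Huwe1, a ubiquitin ligase that marks MCL1 for degradation, fell by 0.18 ± 0.04 (SE, n = 4 per group; edgeR BH-adjusted p = 0.0365), to 574.7 ± 24.9 CPM on structured, against 650.7 ± 24.0 CPM on smooth PEEK (SD). Rps6ka1, a kinase that phosphorylates BAD, fell by 0.17 ± 0.04 (SE, n = 4 per group; edgeR BH-adjusted p = 0.0442), to 118.7 ± 6.31 CPM on structured, against 133.8 ± 1.52 CPM on smooth PEEK (SD). With 1 library left out at a time, Huwe1 was called without structured 1 and Rps6ka1 without structured 3, and neither in the other 7 subsets. Over all 19 alternatives Huwe1 was called in 6 and Rps6ka1 in 5, DESeq2 and voom among them. With the trend on GC content and transcript length removed both calls were lost. Their log2 fold changes over 19 alternatives ran from -0.21 to -0.05 for Huwe1 and from -0.21 to -0.11 for Rps6ka1.

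**Figure D5:**
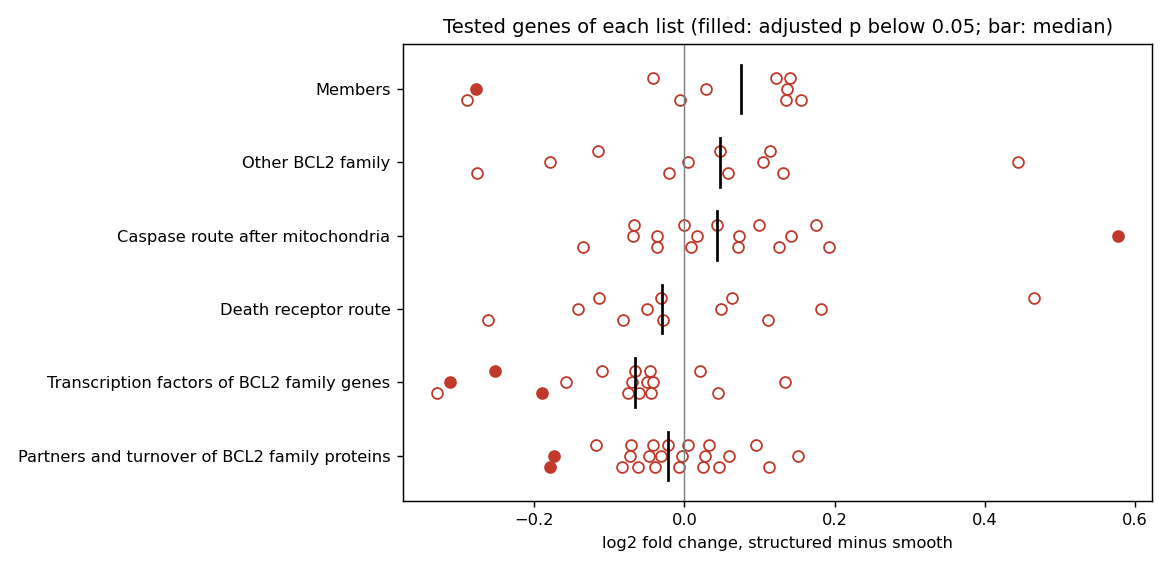
Log2 fold change, structured minus smooth, of every tested gene in the members and in 5 lists around them (points: genes; filled: adjusted p below 0.05; bar: median of the list). The filled points are Bcl2l11, Endog, Jun, Trp53, Foxo3, Huwe1 and Rps6ka1, of which Endog alone is above 0.

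The profiles most like those of Bcl2l11 and Bid over the 8 libraries were sought among 10924 tested genes with a mean of at least 1 FPKM, by the root mean square difference of log2 CPM centred on each gene's mean. Nearest to Bcl2l11 were Ssh1 (0.0247 on the log2 scale), Apbb1ip (0.0248) and Dtnb (0.0317), where Bcl2l11 itself varied by 0.157 around its mean. Of these Apbb1ip fell by 0.27 (edgeR BH-adjusted p = 0.0157), a call lost without structured 2 or 4 or smooth 3, while Ssh1 was at -0.27 (0.0969) and Dtnb at -0.27 (0.0603) without passing. Nearest to Bid, which varied by 0.0789, were Eno1b (0.0167), Gnl2 (0.0200) and Bub3 (0.0210). Bub3 rose by 0.15 (edgeR BH-adjusted p = 0.0329) and Eno1b by 0.14 (0.0454), both losing the call without any 1 of the 8 libraries, and Gnl2 was at 0.12 (0.124; DESeq2 adjusted p = 0.0474). Part of this likeness is the difference between the surfaces, which all of these profiles share. The genes were picked for likeness to the members with the smallest p, so their fold changes and p-values are no separate test.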

How the data were processed

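Poly(A) RNA of 8 libraries, 4 per surface, was sequenced as read pairs of 150 bases, in a dUTP protocol that marks the strand and adds molecular identifiers, per the labels' protocols. The submitters' processing notes name cutadapt 1.9 and HISAT2 2.2.1. Which counter, strand setting, annotation and build were used, and whether identifiers were collapsed, is not given in the sources used here. Deposited expected counts were whole numbers. Multiples of 4 made up 32.1% of low values (1 to 40) and 25.3% of higher ones (400 to 4000), so they were treated here as estimates; the sources do not say how they were made. The deposited FPKM values were scaled by the authors to gene length and depth, per the file headers. Positions of all 10 members matched GENCODE M21 (GRCm38).

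Counts were tested with edgeR 4.0.16 under R 4.3.3: genes passing filterByExpr at a count of 10 (16006 in all) were scaled by TMM and given a two-sided quasi-likelihood test, structured over smooth, with p-values adjusted by Benjamini-Hochberg and a threshold of 0.05. The step was tested on simulated data. Alternatives were limma 3.58.1 (voom, and log2 FPKM with pseudocounts of 0.1, 0.5 and 1), DESeq2 1.42.0 and its size factors, no filter, counts divided by 4, a replicate block, the neutrophil marker level as a covariate, removal of a loess trend (span 0.5) with GC content and transcript length (known for 99.9% of tested genes), and each library left out. The members, lists and alternatives were chosen with earlier results of these data known. Besides the members, the text names the 2 called genes with the smallest p of each list, or else its most abundant gene. It also names the 3 nearest profiles of the 2 members with the smallest p. Foxo3, Bbc3, Foxo1 and Foxo4 were added after their values were seen. Motif searches were chosen after the data were seen. Figures used matplotlib 3.10.9.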

Additional observations from a re-analysis of the deposited data

Results flagged for a closer look

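Over the 10 members and both groups, 20 sets of 4 libraries were searched for a library that stands apart, of which chance flags about 1 in 20. The 1 found was Bad in smooth 1, at 20.4 CPM, where the other smooth libraries lay at 16.8 to 17.2 CPM. Its gap to the next library was 0.884 of the group's range, above the critical value of Dixon's test. The same library held the highest values of Bcl2 and Bmf in its group, at 17.4 and 12.0 CPM. It held the lowest values of Mcl1, Bcl2l1, Bcl2a1b, Bcl2a1d and Bid in that group. Its skeletal muscle and hepatocyte marker sums were the highest of the group, at 43.2 and 184.0 CPM. The part of muscle and hepatocyte transcripts in the Bad value was not tested.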

How the results depend on the processing

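Of 192 fold changes of members under alternatives, 174 kept their direction and their side of the threshold. Members that stayed uncalled make up most of these, and the A1 sum is counted for both Bcl2a1b and Bcl2a1d. Bcl2l11, the 1 called member, kept its call in 9 of 19 alternatives. The count of members called lower, 1 as reported, was 0 without the low-count filter, with limma on log2 FPKM at each pseudocount and with the neutrophil marker level as a covariate, and ranged from 0 to 1 over libraries left out, being 0 without structured 1, 2 or 4 or smooth 3 or 4. In those fits Bcl2l11 had log2 fold changes of -0.28, -0.24 (pseudocount 0.5), -0.27 (0.1), -0.21 (1) and -0.33. The count of members called higher, 0 as reported, was 1 with DESeq2, with limma on log2(FPKM + 0.1) and with counts divided by 4 (Bid at 0.14, 0.15 and 0.14). Without the filter 26848 genes entered the adjustment. In the fit with the neutrophil level, 8 genes were called higher and 4 lower over all genes, against 161 and 440 as reported. The covariate was highest in structured 2, 3 and 4. It was higher in every structured library than in any smooth one, so this fit cannot separate it from the surface. The cause of the other changes was not tested. The sign of Bcl2l1 changed with the neutrophil level (0.0564), after removal of the GC and length trend (0.028) and without structured 4 or smooth 3 (-0.0311 to 0.0171 over libraries left out). That of Bmf changed without structured 1 (-0.0038 to 0.285 over libraries left out). None of these was called. Of 285 fold changes of 15 other named genes, without Foxo1 and Foxo4, 86 lost the call, 5 gained it and 5 changed sign. All 5 were of Bbc3, at 0.061 with the neutrophil level, 0.0203 after that trend was removed, 0.032 without structured 4, 0.0808 without smooth 1 and 0.0189 without smooth 2 (-0.0879 to 0.0808 over libraries left out), and none was called.

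Over all genes the calls were 389 lower and 163 higher with DESeq2 size factors, 880 and 553 with DESeq2, 192 and 201 after removal of the trend, 142 and 47 without the filter, and 122 to 153 lower and 65 to 89 higher with limma on log2 FPKM, and they ranged from 67 to 427 lower and 21 to 170 higher with each library left out, where fewer samples enter. The shared library numbers did not pair the samples: deviations from group means correlated by -0.062, 0.076, -0.0045 and -0.16 for numbers 1 to 4, and 0 of 4 structured libraries correlated best with the smooth library of their number. With the replicate block 1 member was called lower, Bcl2l11 at -0.28, and over all genes 374 were lower and 125 higher. The standard error was largest for Bmf (0.18) and Bcl2 (0.14), and the part of depth in it was not tested.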
